A study of Mus musculus with 6 samples.

Results

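The genes described here are the chemokines and chemokine receptors of the CC and CXC classes. They were taken from the deposited expression table by symbol, as every gene named Ccl, Cxcl, Ccr or Cxcr followed by a number and at most a lower-case suffix. This gave 53 of 46095 genes, of which 37 encode ligands (24 CC and 13 CXC) and 16 encode receptors (10 CC and 6 CXC). The question was whether these genes differed in the liver between mice that lack beta-arrestin 1 and wild-type mice when both had eaten a high-fat diet.

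The data are RNA-seq of 6 libraries from C57BL/6 mice, labelled as hepatocytes from liver, all after 26 weeks of high-fat diet. The 3 libraries titled HFD-WT are wild type, and the 3 titled HFD-ARRB1-KO carry the genotype ARRB1-/- in the series text, with no cell type named for the deletion. For knockout replicates 2 and 3 the genotype label reads ARRB2 or ARRB3 in place of ARRB1, so title and label disagree. No group on a normal diet was analysed here, and the labels do not say whether a replicate is 1 animal, so a p-value here speaks only of the spread among these 6 libraries.

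Chemokines are small secreted proteins that guide migrating cells, and their class names give the spacing of the first cysteines of the mature protein. Their receptors are G protein-coupled receptors, carried mainly by leukocytes, and beta-arrestins bind such receptors once they are phosphorylated and help to silence and internalise them. In a fatty liver, the Ccl2 and Ccr2 pair is known for bringing in blood monocytes, Cxcl9 to Cxcl11 and Cxcr3 for lymphocytes, Cxcl1, Cxcl2 and Cxcr2 for neutrophils, and Cxcl12 and Cxcr4 for the positioning of blood and stromal cells.

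Levels are given as FPKM, which counts fragments per length of a gene and per depth of its library. Estimated depth was 27910000 to 35060000 fragments in 5 libraries and 13910000 in knockout replicate 1, the shallowest library. Arrb1, the targeted gene, had 3.86, 22.7 and 16.9 FPKM in the 3 wild-type libraries and 0.918, 1.05 and 1.16 FPKM in the 3 titled knockout (log2 fold change -2.64 in limma, adjusted p = 0.0275). It was thus low in every library titled knockout, including those with the differing genotype labels. Hepatocyte markers summed to 58973 to 66624 FPKM in the wild type and to 55521 to 64178 FPKM in knockout, with Alb the largest part of the sum, and none of the 12 was listed at 0. For 5 of these markers every knockout library lay below every wild-type library, and for 1 above. Among all genes above 0.5 FPKM in any library, 7.49% separated in this way downwards and 21.4% upwards. Of the 12, 1 was called lower, beside 1.6% of all tested genes (Tat, an amino acid enzyme, 763 ± 258 to 320 ± 126 FPKM, SD, n = 3 each, limma, adjusted p = 0.0495). Summed markers of Kupffer, endothelial and stellate cells were above 0 in every library as well.

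Of the 53 genes, 26 exceeded 0.5 FPKM in at least 1 library (20 ligands and 6 receptors), 19 were above 0 without exceeding it, and 8 were listed at 0 throughout. Only 13 reached the mean of 1 FPKM that the limma fit on log2(FPKM + 1) required, so 40 had no test there, among them 13 of the 26. None of the 13 passed an adjusted p of 0.05 in either direction, where 5.3% of all tested genes were called higher and 1.6% lower. At an unadjusted p under 0.05 there were 4 of 13 (Ccr2, Cxcl12, Cxcl9 and Ccl6), beside 25.3% of all tested genes. The median log2 fold change of the 13 was 0.29, beside 0.075 for all genes tested, with 9 above and 4 below 0.

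A second fit, limma's voom on whole reads recovered from the FPKM steps, reached lower genes and could test 25 of the 53. It called 3 higher in knockout (Ccr2, Cxcl9 and Ccr1) and 1 lower (Cxcl12), where 5.91% and 1.64% of all its genes were called. Ccr1 met the minimum of 10 reads in 3 libraries only through the knockout group, so its call is no independent support. The values also separated completely between groups for 6 of the 26 genes. Ccr2, Ccr1, Cxcl9, Ccl22 and Cxcl2 had every knockout library above every wild-type library, and Cxcl12 had every knockout library below. Among all 13273 genes above 0.5 FPKM in any library, 21.4% separated upwards and 7.49% downwards, so 5 and 1 of 26 are shares near that background. Moreover, Ccr1, Ccl22 and Cxcl2, 3 of the 5 that separated upwards, exceeded 0.5 FPKM in knockout libraries only, so they entered the 26 through the group where they are high.

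**Figure D1:**
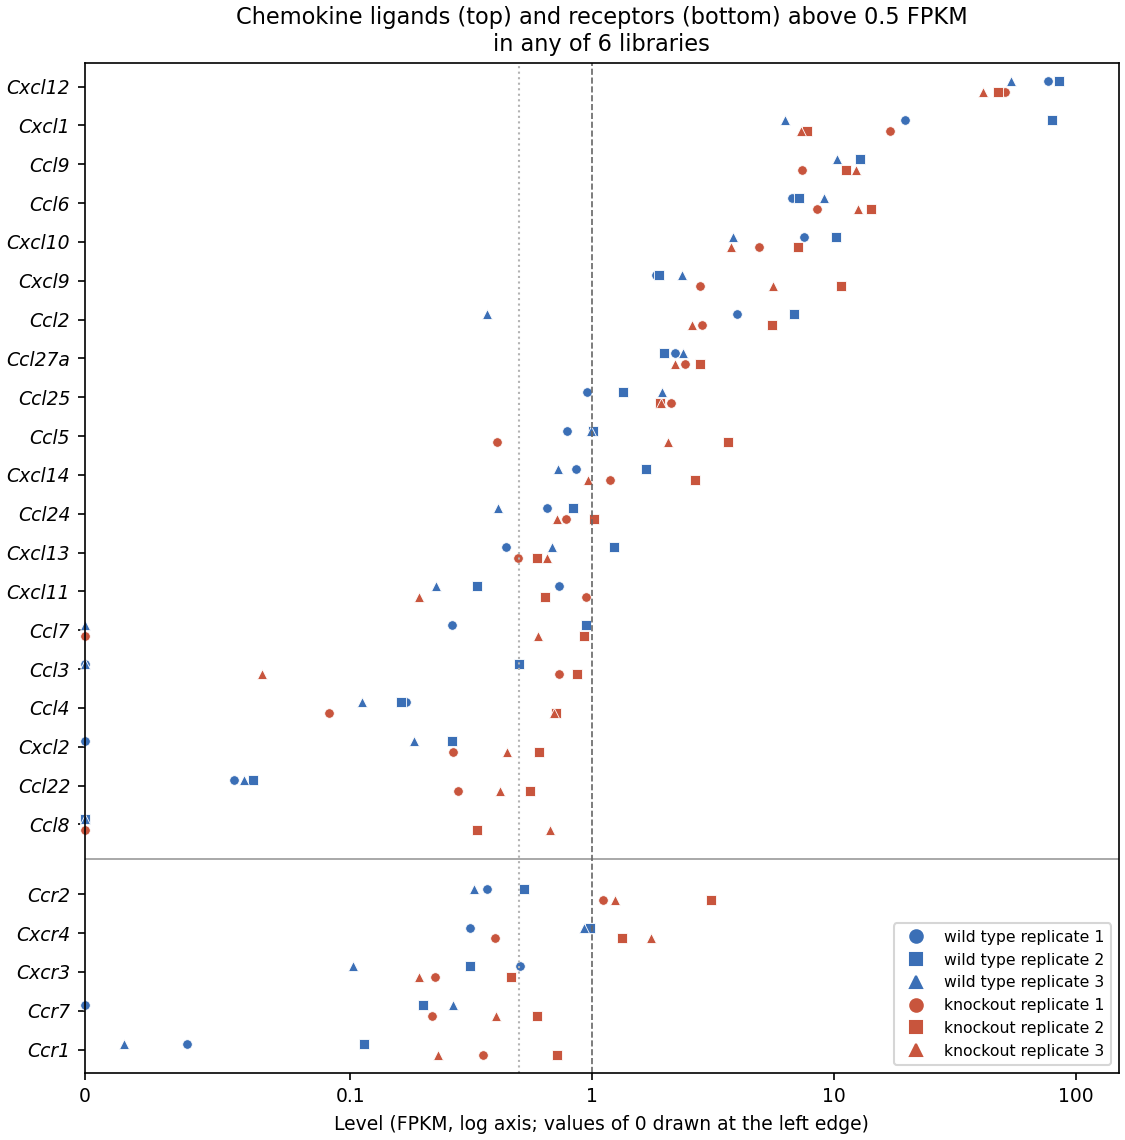
FPKM in each of the 6 libraries (log axis, values of 0 at the left edge) for 20 ligands and 5 receptors above 0.5 FPKM in any library, with colour for genotype and marker shape for replicate. Cxcl12 stands at the right with its 3 knockout libraries below wild type, while Ccr2, Ccr1, Cxcl9, Ccl22 and Cxcl2 have their knockout libraries to the right of wild type.

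The stretches just upstream of 4 genes are shown, for 3 of those that separated the groups and for Cxcl10, which lies beside Cxcl9 and whose groups overlapped. They are RefSeq sequences of build GRCm38.p6, 5′ to 3′ on the strand of the gene, ending at the base before the gene start. Cxcl9 is chr5:92328080-92328329 (minus strand), Cxcl10 is chr5:92348890-92349139 (minus strand), Cxcl12 is chr6:117168285-117168534 (plus strand) and Ccl22 is chr8:94745434-94745589 (plus strand, 156 bases, since the RefSeq window runs past the gene start of GENCODE). Capitals mark TATAAA in Cxcl9, and in Cxcl10 the interferon-stimulated response element pattern first and the kappa B pattern after it.
Cxcl9: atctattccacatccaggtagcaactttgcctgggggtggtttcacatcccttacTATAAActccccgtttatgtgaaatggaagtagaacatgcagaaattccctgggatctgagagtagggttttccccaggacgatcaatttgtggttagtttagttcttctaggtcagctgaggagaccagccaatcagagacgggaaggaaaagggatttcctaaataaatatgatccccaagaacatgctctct
Cxcl10: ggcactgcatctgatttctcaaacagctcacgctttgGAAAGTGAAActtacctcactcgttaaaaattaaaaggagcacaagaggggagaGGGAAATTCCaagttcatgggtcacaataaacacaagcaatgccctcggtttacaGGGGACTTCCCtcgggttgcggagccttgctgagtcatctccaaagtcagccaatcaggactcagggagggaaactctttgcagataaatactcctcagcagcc
Cxcl12: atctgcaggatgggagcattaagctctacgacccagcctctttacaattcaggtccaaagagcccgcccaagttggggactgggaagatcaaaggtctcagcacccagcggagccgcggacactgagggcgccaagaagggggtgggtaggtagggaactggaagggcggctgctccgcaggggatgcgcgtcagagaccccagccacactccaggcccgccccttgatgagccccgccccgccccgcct
Ccl22: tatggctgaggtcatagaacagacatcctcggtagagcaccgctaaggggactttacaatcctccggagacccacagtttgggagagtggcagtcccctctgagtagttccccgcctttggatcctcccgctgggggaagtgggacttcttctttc
A set of 4 patterns was searched in the 250 bases upstream, or in the 156 bases shown for Ccl22. TATAAA was searched on the strand of the gene only, and the other patterns on both strands. TATAAA, the core of a TATA box, lay 195 to 190 bases upstream in Cxcl9 and occurs in 7.59% of all 32851 windows. GAAANNGAAA, the interferon-stimulated response element, lay 213 to 204 bases upstream in Cxcl10 and occurs in 2.98% of windows. The kappa B pattern occurs in 7.25% of windows and had matches 159 to 150 and 104 to 94 bases upstream in Cxcl10, where the latter run holds overlapping matches. TTCNNNGAA, the gamma-activated site, occurs in 7.02% of windows and in none of the 4 shown. The Cxcl12 stretch held no match to any of the patterns and had 64.4% G and C, against 44.4% for Cxcl9. Among the 37 members with a window, the kappa B pattern was found for 10, Cxcl1, Cxcl2, Ccr1 and Ccl9 among them, TATAAA for 9, and the interferon patterns for 3 each. These matches describe letters and say nothing of binding.

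Ccr2 (chromosome 9, 124101950 to 124113557, plus strand, GRCm38), the receptor that draws monocytes out of the blood, was higher in all knockout libraries. In the order of replicates 1 to 3, it had 0.367, 0.523 and 0.324 FPKM in the wild type and 1.11, 3.09 and 1.25 FPKM in knockout. The lowest knockout library was thus above the highest wild-type library, with replicate 2 far above the other knockout libraries. The means were 0.405 ± 0.105 and 1.81 ± 1.11 FPKM (SD, n = 3 each), and the log2 fold change was 0.94 ± 0.248 (SE; limma, adjusted p = 0.0654). The reads behind these values were 46, 55 and 37 in wild type and 58, 408 and 137 in knockout. Scaled to depth, knockout libraries held 5.12 times the reads of wild type (95% exact interval 4.25 to 6.20, counting error only), and voom called the gene (log2 fold change 2.18, adjusted p = 0.0314). Ccr2 reached the mean of 1 FPKM for the limma fit through the knockout libraries only. Over 16 alternative settings the adjusted p ran from 0.0314 to 0.183, and 4 of them called it higher. Without knockout replicate 2 the mean fell under the filter of the fit and no limma value was obtained.

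None of the ligands of Ccr2 separated the groups. Ccl2 (chromosome 11, 82035571 to 82037453), the main monocyte attractant, had 3.98, 6.85 and 0.368 FPKM in the wild type and 2.86, 5.52 and 2.59 FPKM in knockout. Wild-type replicate 3, with 9 reads, was the lowest of the 6, and the wild-type range spanned the knockout one. Its log2 fold change, 0.25 ± 0.584 (SE; limma, adjusted p = 0.823), turned to -0.48 without that library. Ccl7, another Ccr2 ligand encoded 8.26 kb from Ccl2, ran from 0 to 0.939 FPKM in the wild type and from 0 to 0.926 FPKM in knockout. Ccl8 was listed at 0 in all wild-type libraries and in knockout replicate 1, and reached 0.335 and 0.671 FPKM in the others, on at most a few reads. Ccl12 was listed at 0 in every library.

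Ccr1 (chromosome 9, 123962124 to 123968692, minus strand), a receptor of monocytes, macrophages and neutrophils, was rare in wild type. Its level was 0.0212, 0.114 and 0.0117 FPKM in the wild type and 0.356, 0.715 and 0.230 FPKM in knockout. All knockout libraries were higher, including the shallow replicate 1 with 14 reads, against 2, 9 and 1 reads in wild type. The read ratio was 10.2 (95% exact interval 5.57 to 20.3), and voom gave a log2 fold change of 3.48 (adjusted p = 0.0499), for a gene that passed its read minimum only through the knockout libraries. The gene was below the limma filter and exceeded 0.5 FPKM in knockout replicate 2 only.

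Ccr1 lies 133 kb from Ccr2 on chromosome 9, in a cluster that also holds Ccr9, Cxcr6 and Ccr3. These 5 receptors each had the higher mean in knockout. Of these, Ccr9, a receptor of gut-homing T cells, Cxcr6, the receptor of Cxcl16, and Ccr3, a receptor of eosinophils, stayed at or below 0.435 FPKM in every library, and their groups overlapped.

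Several CC ligands, among them those of Ccr1, lie together on chromosome 11 (83525778 to 83664683). Ccl6 (83587882 to 83593087), a ligand of Ccr1 made by macrophages and neutrophils, was at 6.67, 7.19 and 9.08 FPKM in the wild type and at 8.51, 14.3 and 12.5 FPKM in knockout. Knockout replicates 2 and 3 were above all wild-type libraries, and replicate 1 lay below wild-type replicate 3. The log2 fold change was 0.55 ± 0.186 (SE; limma, adjusted p = 0.121), and 2 of 17 alternatives called it, array weights and the fit without knockout replicate 1 (adjusted p = 0.0376, in a range of 0.0376 to 0.316). Ccl9 (83572919 to 83578636), a Ccr1 ligand of macrophages 9.25 kb away, had the lower mean in knockout and was not called. It was at 12.8, 12.8 and 10.3 FPKM in the wild type and at 7.34, 11.1 and 12.3 FPKM in knockout (log2 fold change -0.22 ± 0.179, SE; limma, adjusted p = 0.472). As a result Ccl9 was above Ccl6 in all wild-type libraries and below it in all knockout libraries. The ratio of Ccl6 to Ccl9 was 0.520, 0.563 and 0.884 in wild type and 1.16, 1.28 and 1.02 in knockout (exact two-sided permutation p = 0.1, the smallest possible with 3 against 3, for a ratio picked after its values were seen).

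Ccl5, which binds Ccr1 and is made by T and NK cells, ran from 0.790 to 1.01 FPKM in the wild type and from 0.406 to 3.65 FPKM in knockout. Knockout replicate 1 was the lowest of all libraries, on 3 reads, and the other knockout libraries were above wild type. The log2 fold change, 0.49 ± 0.380 (SE; limma, adjusted p = 0.455), became 0.97 without that library (adjusted p = 0.0418, in a range of 0.0418 to 0.890). Ccl3 and Ccl4, made by activated macrophages, reached 0.867 and 0.711 FPKM at most in knockout and 0.499 and 0.170 FPKM in wild type. Their groups overlapped, on at most 24 reads per library.

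**Figure D2:**
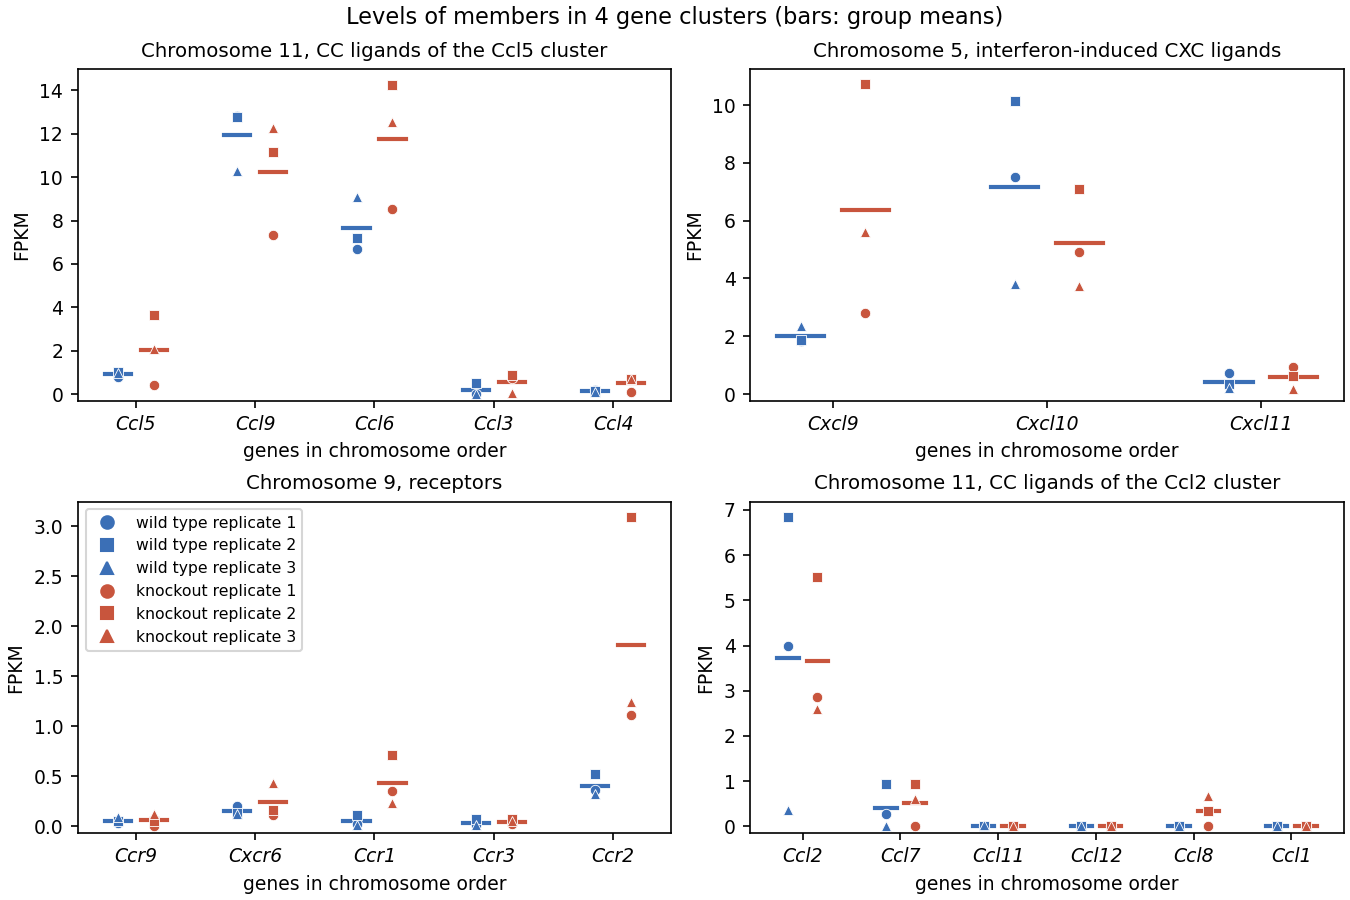
FPKM by library for the members of 4 gene clusters, in chromosome order, with bars at the group means (n = 3 each). In the chromosome 9 panel Ccr2 and Ccr1 separate the groups, in the chromosome 5 panel Cxcl9 separates them while Cxcl10 and Cxcl11 overlap, and in the Ccl5 cluster panel of chromosome 11 Ccl6 and Ccl9 change order between the groups.

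Monocyte markers differed between the groups beside these receptors. The 8 monocyte markers summed to 2.11 to 3.38 FPKM in the wild type and to 4.81 to 12.7 FPKM in knockout, with no overlap, none at 0 in all libraries, and knockout replicate 2 again the highest. For 6 of the 8 the groups separated upwards, beside 21.4% of all genes above 0.5 FPKM. Of those 6, Vcan stayed below 0.5 FPKM in every library, so it lies outside that background. Chil3, F13a1 and Ms4a4c exceeded 0.5 FPKM in knockout libraries only, the group where they are high. Of the 2 tested, 1 was called higher, beside 5.3% of all tested genes (Plac8, 1.47 ± 0.313 to 2.74 ± 0.452 FPKM, SD, n = 3 each, limma, adjusted p = 0.0486). Of 9 monocyte-derived macrophage markers, 7 were tested and 3 called higher (Mmp12, Gpnmb and Lgals3). Mmp12 and Gpnmb reached the mean of 1 FPKM through the knockout libraries only. For 7 of the 9 markers the groups separated upwards, while the sums of 49.2 to 83.2 and 75.3 to 184 FPKM overlapped. Of the 7, Gpnmb, Mmp12, Itgax and Ms4a7 exceeded 0.5 FPKM in knockout libraries only, the group where they are high. Spp1, the largest part of the sum in wild-type replicate 1, was at 53.3 FPKM there and at 29.3 FPKM in knockout replicate 1. Pan-leukocyte markers summed to 68.5 to 73.9 FPKM in the wild type and 80.2 to 133 FPKM in knockout. For 5 of these 10 the groups separated upwards, and 0 of the 9 tested were called. Among the 5, Laptm5 exceeded 0.5 FPKM in knockout libraries only. Kupffer cell markers, those of the resident macrophages, summed to 333 to 364 and 347 to 428 FPKM. Of these 12, 1 was called lower (Vsig4), beside 1.6% of all tested genes. The groups separated upwards for 3 of the 12 and downwards for 3, beside 21.4% and 7.49% of all genes above 0.5 FPKM. The part of these cells in the levels of Ccr2, Ccr1 and Ccl6 was not tested. In such bulk samples more cells of a type and more RNA per cell cannot be told apart.

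**Figure D3:**
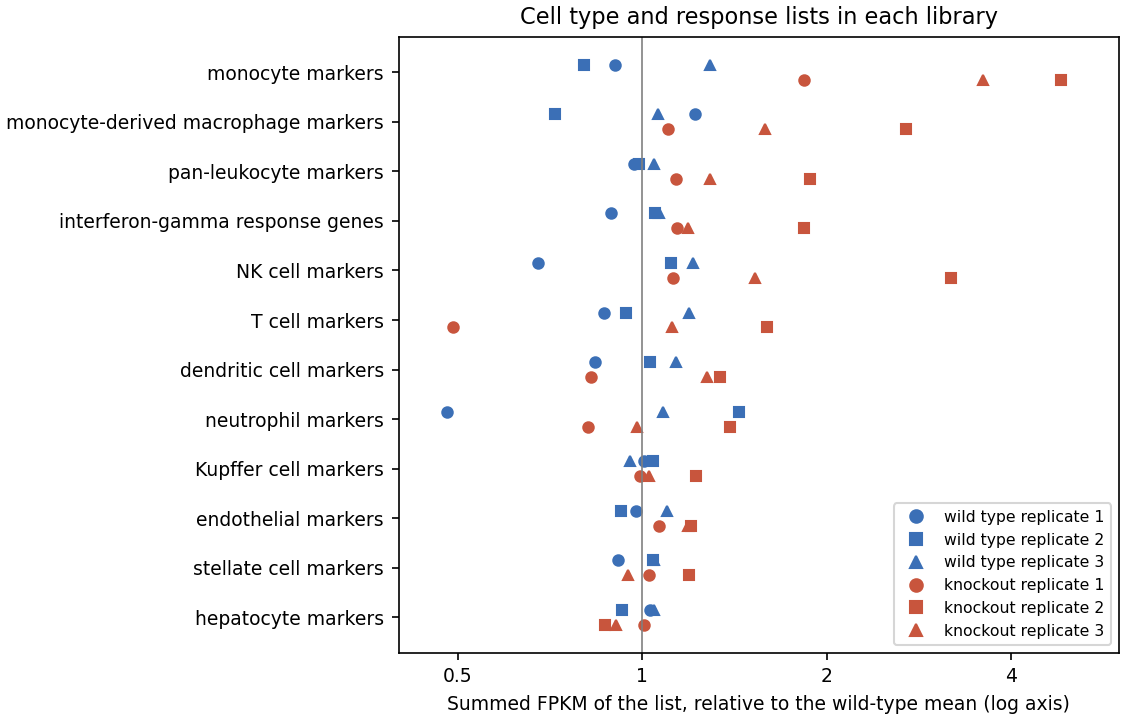
Summed FPKM of each marker or response list in each library, divided by the wild-type mean of that list (log axis), with colour for genotype and shape for replicate. Monocyte and pan-leukocyte markers and interferon-gamma response genes have all 3 knockout libraries above wild type, for the last of these only with Cd74 included, and the other lists overlap.

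Cxcl9 (chromosome 5, 92321347 to 92328079, minus strand), induced by interferon gamma and read by Cxcr3 on activated T and NK cells, was higher in all knockout libraries. It was at 1.84, 1.89 and 2.35 FPKM in the wild type and at 2.80, 10.7 and 5.60 FPKM in knockout. Wild type was tight and the knockout libraries were spread, with replicate 1 just above wild type. The means were 2.03 ± 0.283 and 6.37 ± 4.01 FPKM (SD, n = 3 each), and the log2 fold change was 1.14 ± 0.352 (SE; limma, adjusted p = 0.095). The read ratio was 3.66 (95% exact interval 3.32 to 4.04), and voom called it (log2 fold change 1.66, adjusted p = 0.0485). Without knockout replicate 1 limma called it too (log2 fold change 1.54, adjusted p = 0.0228), and without replicate 2 the change was 0.73 (adjusted p = 0.178), in a range of 0.0228 to 0.256 over 17 alternatives.

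Cxcl10 (chromosome 5, 92346638 to 92348889, minus strand), which also binds Cxcr3 and lies 18.6 kb from Cxcl9, had the lower mean in knockout and was not called. It was at 7.50, 10.2 and 3.81 FPKM in the wild type and at 4.90, 7.10 and 3.74 FPKM in knockout, with groups that overlapped almost fully. The log2 fold change was -0.34 ± 0.314 (SE; limma, adjusted p = 0.541, 95% interval -1.06 to 0.39). The ratio of Cxcl9 to Cxcl10 was 0.245, 0.186 and 0.618 in wild type and 0.571, 1.51 and 1.50 in knockout, where only knockout replicate 1 lay within the wild-type range (exact two-sided permutation p = 0.2). Exons of Art3 overlap Cxcl10 on the opposite strand, and the sources used here do not say whether strand was kept, so reads of the pair cannot be told apart. Cxcl11, the other Cxcr3 ligand, ran from 0.226 to 0.729 FPKM in the wild type and from 0.192 to 0.941 FPKM in knockout, and exons of Gm2673 overlap it on the opposite strand. Cxcr3 itself (chromosome X, 101731535 to 101734269) was low, at 0.103 to 0.504 FPKM in the wild type and 0.192 to 0.461 FPKM in knockout, with overlapping groups.

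Other genes that answer interferon gamma gave 0 called of 10 tested (limma; median log2 fold change 0.20, 9 above 0). Their summed level was 172 to 207 FPKM in the wild type and 222 to 356 FPKM in knockout without overlap, with Cd74, of antigen presentation, the largest part of the sum in knockout replicate 2. Without Cd74, left out after its values were seen, the sums of 128 to 173 and 150.4 to 178 FPKM overlapped. Among 21 listed, 3 separated upwards (Ciita, Cd74 and H2-Aa), beside 21.4% of all genes above 0.5 FPKM, names chosen after their values were seen. Ciita and H2-Aa exceeded 0.5 FPKM in knockout libraries only. The 11 T cell markers summed to 1.83 to 2.52 FPKM and 1.04 to 3.37 FPKM, with Cd2 at 0 in all libraries, and the 7 NK cell markers summed to 0.755 to 1.35 and 1.25 to 3.57 FPKM. Both sums overlapped. Of the T cell markers 2 separated upwards (Cd8a and Cd5, below 0.5 FPKM in every library) and 1 downwards (Cd4). Of the NK cell markers 1 separated upwards (Nkg7) and 0 downwards. Among all genes above 0.5 FPKM 21.4% separated upwards and 7.49% downwards. The part of these cells in the level of Cxcl9 was not tested.

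Cxcl12 (chromosome 6, 117168535 to 117181367, plus strand), the stromal ligand of Cxcr4 that retains blood cells in tissue, was the most abundant chemokine and was lower in all knockout libraries. It was at 76.4, 84.8 and 54.0 FPKM in the wild type and at 50.6, 47.7 and 41.3 FPKM in knockout. The knockout libraries lay close together and below all wild-type libraries, of which replicate 3 came nearest. The means were 71.7 ± 15.9 and 46.5 ± 4.76 FPKM (SD, n = 3 each), and the log2 fold change was -0.59 ± 0.169 (SE; limma, adjusted p = 0.0789, 95% interval -0.98 to -0.20). It rests on at least 3990 reads per library, the read ratio was 0.641 (95% exact interval 0.630 to 0.652), and voom called the gene lower (log2 fold change -0.61, adjusted p = 0.0499). Without wild-type replicate 3 limma called it as well (log2 fold change -0.78, adjusted p = 0.0241), in a range of 0.0241 to 0.217 over 17 alternatives that called it 3 times. Cxcl12 made up 50.9 ± 9.80% of the summed FPKM of all ligands in wild type and 43.4 ± 4.88% in knockout (SD, n = 3 each; exact permutation p = 0.3).

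Cxcr4 (chromosome 1, 128588199 to 128592293), its receptor on leukocytes, ran from 0.313 to 0.984 FPKM in the wild type and from 0.395 to 1.75 FPKM in knockout. Replicate 1 was the lowest library of each group, and the groups overlapped (voom log2 fold change 0.86, adjusted p = 0.401). Ackr3, a scavenging receptor of Cxcl12, was below the filter, at 0.483 to 0.664 FPKM in the wild type and 0.310 to 0.922 FPKM in knockout, and is named here after its values were seen. Among the known sources of Cxcl12, stellate cell markers summed to 192 to 220 FPKM in the wild type and 200.1 to 251 FPKM in knockout, with 0 of 11 called. Endothelial markers summed to 134 to 159 and 154 to 174 FPKM, with 2 of 10 called higher (Lyve1 and Pecam1) and none lower. Of all tested genes 5.3% were called higher and 1.6% lower. For 7 of the 10 endothelial markers and 2 of the 11 stellate cell markers the groups separated upwards, and for 0 of either downwards. Among all genes above 0.5 FPKM these shares were 21.4% and 7.49%. The part of these cells in the level of Cxcl12 was not tested.

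**Figure D4:**
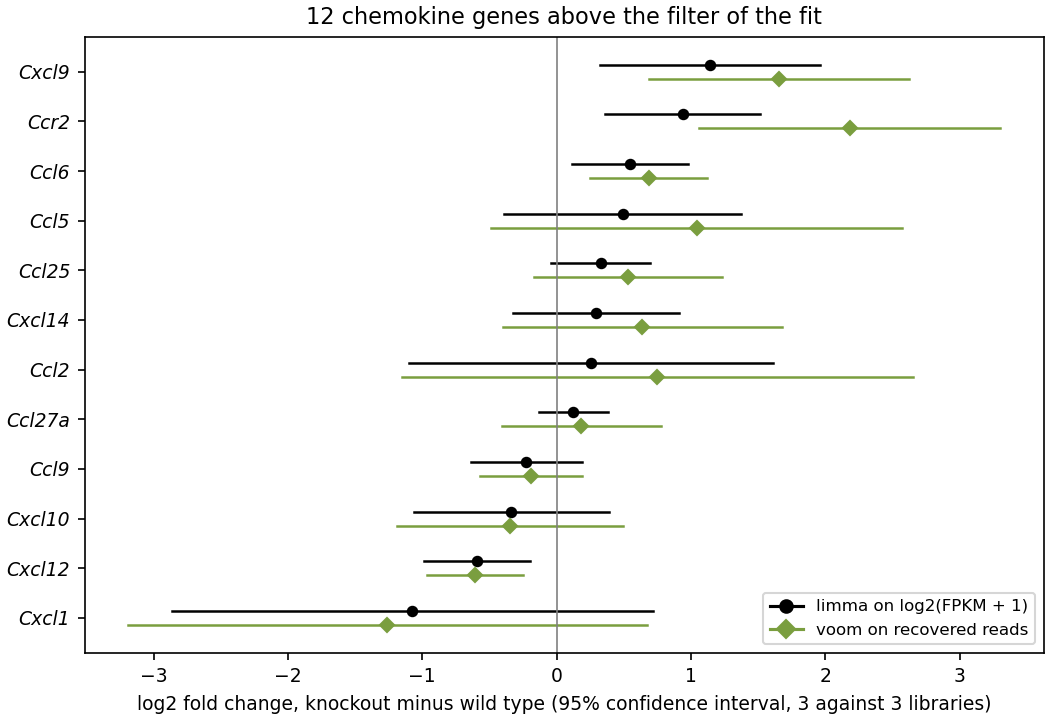
Log2 fold change of knockout against wild type with its 95% confidence interval for 12 of the 13 genes that limma tested, from limma on log2(FPKM + 1) and from voom on recovered reads (3 against 3 libraries). The limma intervals of Cxcl9, Ccr2 and Ccl6 lie above 0 and that of Cxcl12 lies below 0, while Cxcl1 and Ccl2 have the widest intervals.

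Cxcl1 (chromosome 5, 90891241 to 90893115), which attracts neutrophils, had the largest standard error of the tested members, with 19.7, 79.5 and 6.29 FPKM in the wild type and 17.0, 7.71 and 7.29 FPKM in knockout. Wild-type replicate 2 was far above the next library, wild-type replicate 1, and wild-type replicate 3 was the lowest of all. The log2 fold change was -1.08 ± 0.771 (SE; limma, adjusted p = 0.423, 95% interval -2.87 to 0.72) and -0.17 without wild-type replicate 2. Cxcl2 (chromosome 5, 90903871 to 90905938), encoded 10.8 kb away with the same receptor, was at 0, 0.265 and 0.183 FPKM in the wild type and at 0.266, 0.606 and 0.443 FPKM in knockout. The groups separated only narrowly, since knockout replicate 1 (4 reads) and wild-type replicate 2 (8 reads) were nearly level, and after median-of-ratios scaling they overlapped. Over all libraries the reads were 14 in wild type and 41 in knockout, a ratio of 3.43 (95% exact interval 1.83 to 6.81). Cxcl2 exceeded 0.5 FPKM in knockout replicate 2 only, so it was named through the group where it is high.

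Their receptor Cxcr2 did not exceed 0.259 FPKM in any library, and Cxcl5, Cxcl3 and Cxcr1 did not exceed 0.12 FPKM. Neutrophil markers summed to 2.15 to 6.44 FPKM in the wild type and 3.64 to 6.21 FPKM in knockout, with 0 of 2 called and none at 0 throughout. Genes induced by NF-kB, which drives Cxcl1, Cxcl2 and Ccl2 in inflamed tissue, gave 0 of 17 called with a median log2 fold change of -0.022, and Tnf was listed at 0 in every library.

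**Figure D5:**
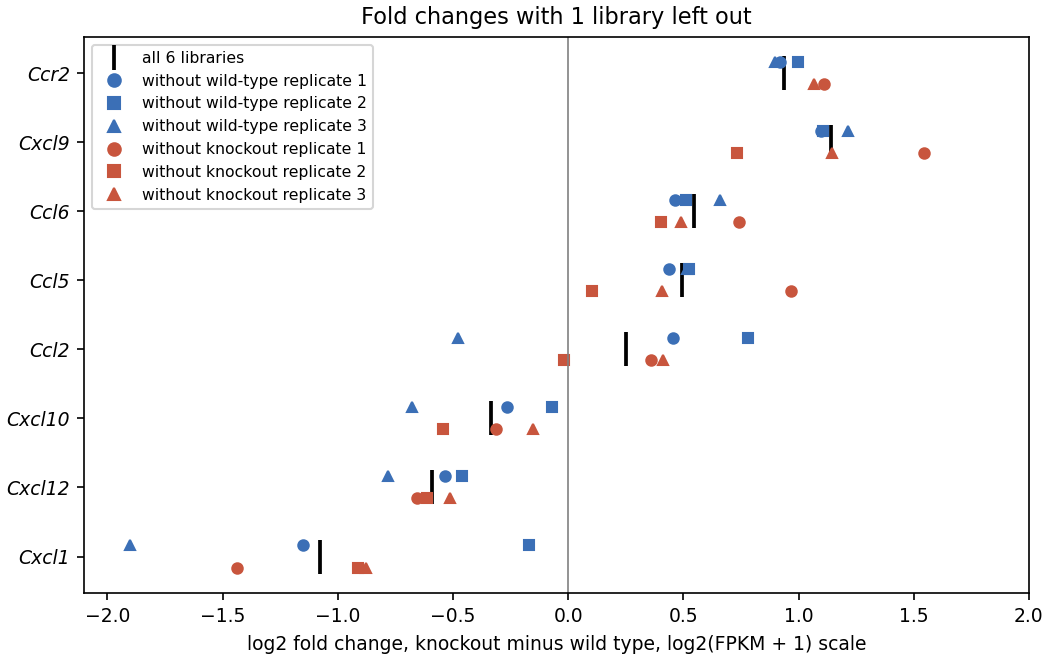
Log2 fold change of 8 members (limma on log2(FPKM + 1)) with all 6 libraries (bar) and with each library left out (points; colour for the genotype and shape for the replicate of the library left out). Ccr2, Cxcl9, Ccl6 and Ccl5 stay above 0 and Cxcl12, Cxcl10 and Cxcl1 below 0, while Ccl2 reaches the other side. Ccr2 has no point without knockout replicate 2.

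Ccl22 (chromosome 8, 94745590 to 94751699, plus strand), made by dendritic cells and macrophages to attract Ccr4-bearing T cells, had the largest read ratio among the named genes with reads in both groups. It was at 0.0331, 0.0396 and 0.0364 FPKM in the wild type, 2 reads in each library, and at 0.278, 0.551 and 0.416 FPKM in knockout, with 7, 35 and 22 reads. Every knockout library was several times the wild-type level, although that level is close to the limit of detection. The read ratio was 12.5 (95% exact interval 5.44 to 35.3), and the gene was below the filters of both fits. Ccl22 exceeded 0.5 FPKM in knockout replicate 2 only, so it was named through the group where it is high. It was also singled out by its ratio, a choice for which the interval does not allow. Ccl17, the other Ccr4 ligand, 58.8 kb away, was at or below 0.0164 FPKM in every library, and Ccr4 at or below 0.0123 FPKM. Dendritic cell markers summed to 2.17 to 2.94 FPKM in the wild type and 2.14 to 3.47 FPKM in knockout. That list contains Ccr7, the receptor that leads dendritic cells to lymph nodes, which ran from 0 to 0.267 FPKM in the wild type and from 0.218 to 0.592 FPKM in knockout. The part of dendritic cells in the level of Ccl22 was not tested.

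The remaining ligands above 0.5 FPKM are mostly of the homeostatic kind, present without inflammation. Ccl27a, a ligand of Ccr10, was at 2.19, 1.97 and 2.38 FPKM in the wild type and at 2.43, 2.79 and 2.20 FPKM in knockout, with the smallest standard error of the tested members (log2 fold change 0.12 ± 0.111, SE; limma, adjusted p = 0.524). Ccl25, the ligand of Ccr9, was at 0.954, 1.34 and 1.94 FPKM in the wild type and at 2.11, 1.90 and 1.93 FPKM in knockout, where wild-type replicate 3 was level with knockout (log2 fold change 0.33 ± 0.158, SE; limma, adjusted p = 0.241). Exons of Il11ra1 overlap Ccl27a and exons of Elavl1 overlap Ccl25 on the opposite strand, and Ccl27a has a near-identical copy in Ccl27b, so both levels are uncertain. Cxcl14, an epithelial and stromal chemokine, ran from 0.722 to 1.67 FPKM in the wild type and from 0.957 to 2.67 FPKM in knockout (limma, adjusted p = 0.530). Ccl24, which attracts eosinophils through Ccr3, ran from 0.410 to 0.834 FPKM and from 0.718 to 1.02 FPKM. Cxcl13, the B cell attractant, ran from 0.439 to 1.23 FPKM and from 0.495 to 0.649 FPKM. In all 5 the groups overlapped.

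Below 0.5 FPKM in every library were Ccl11, Ccl17, Ccl19, Ccl26, Ccl27b, Ccl28, Cxcl3, Cxcl5, Cxcl16 and the receptors Ccr3, Ccr4, Ccr6, Ccr8, Ccr9, Ccr10, Cxcr1, Cxcr2, Cxcr5 and Cxcr6. Of these 19, 14 had fewer than 10 reads in any library. The highest, Ccl19, a ligand of Ccr7, reached 0.498 FPKM in wild-type replicate 2, and the nearest above the limit was Cxcr3, with 0.504 FPKM in wild-type replicate 1. Ccl1, Ccl12, Ccl20, Ccl21a, Ccl21b, Ccl21c, Cxcl15 and Cxcl17 were listed at 0 in all 6 libraries. The Ccl21 genes are near-identical copies whose reads may have been dropped or shared out in counting, so their 0 is uncertain.

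Summed over all members, the ligands came to 148 ± 60.7 FPKM in the wild type and 108 ± 12.9 FPKM in knockout (SD, n = 3 each; exact two-sided permutation p = 0.4). The 6 CXC receptors came to 1.11 to 1.73 FPKM in the wild type and 0.954 to 2.67 FPKM in knockout, with overlapping groups. The sum of ligands rests largely on Cxcl12 and on the high Cxcl1 of wild-type replicate 2.

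Of the other chemokine system genes, 6 were tested and 0 called (limma; 6 of 6 log2 fold changes above 0, median 0.16), and Pf4 and Ppbp were listed at 0. Cx3cr1, the fractalkine receptor of patrolling monocytes, named after its values were seen, separated upwards at 0.632, 0.563 and 0.325 FPKM in the wild type and 1.09, 3.25 and 0.895 FPKM in knockout (adjusted p = 0.153). Among the genes that act downstream of chemokine receptors, 0 of 17 tested were called higher and 2 lower, beside 5.3% and 1.6% of all tested genes. These are the targeted Arrb1 and Grk5, a kinase that phosphorylates active receptors, at 3.63 ± 0.263 FPKM in the wild type and 2.17 ± 0.251 FPKM in knockout (SD, n = 3 each; limma, adjusted p = 0.0265). For 10 of the 22 genes of that list the groups separated upwards without a call, beside 21.4% of all genes above 0.5 FPKM. Among them were Plcb3, Grk6 and Rgs2, named after their values were seen. Of the 10, Pik3cg and Plcb2 exceeded 0.5 FPKM in knockout replicate 2 only.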

How the data were processed

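Per the labels' protocols, an Illumina TruSeq kit and 1 ug of RNA were used for each library. The authors deposited 1 FPKM value per gene and library. The submitters' processing notes list the tools Bowtie 0.12.2 and HISAT2 and the builds mm8 and mm10. Their roles, the annotation, strand and the treatment of multiply mapped reads are not given in the sources used here. Positions come from GENCODE vM21 (GRCm38), matched by symbol for 52 of 53 genes.

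Libraries were grouped by title. limma 3.58.1 in R 4.3.3 (eBayes with trend, two-sided) was fitted on log2(FPKM + 1) for 10633 genes (mean FPKM of 1 or more), with Benjamini-Hochberg adjustment over all of them and a threshold of 0.05. Fold changes are knockout minus wild type, and the pseudocount understates those of low genes. Whole reads were recovered from the FPKM steps for 17545 of 17549 genes detected in 4 or more libraries (99.98%, within 0.001 reads plus a small share of the count, at most 0.05), and voom was run on the 14123 genes with at least 10 reads in at least 3 libraries. Depth totals are estimates. Read ratios carry exact (Clopper-Pearson) 95% intervals for counting error only. The smallest p of an exact permutation test of 3 against 3 is 0.1. The limma fit was tested on simulated data. Read recovery was tested on genes of these data, with the estimated depths and with wrong ones. Python 3.11.15 was used for the rest.

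Every member above 0.5 FPKM in any library was named, with values per library for called members, members whose groups did not overlap and the 10 with the highest mean, and ranges for the others. A gene that this rule names is not reported here, although counts over the members include it. Of other lists, called genes were named, up to 4. The members and lists were chosen with earlier results of these data known. Alternatives were another pseudocount, filter, scaling, eBayes setting or library weighting, the replicate number as a block, voom, and each library left out. Only 1 of 3 same-number correlations of deviations exceeded 0.1. With 3 libraries per group this cannot decide whether the numbers pair the libraries, and the main fit was not paired.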

Additional observations from a re-analysis of the deposited data

How the results depend on the processing

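Among the chemokine genes, 0 were called higher and 0 lower by limma. Higher calls became 1 with a pseudocount of 0.1 FPKM, 1 after rescaling to TPM, 3 with array weights and 3 with voom on recovered reads, and lower calls became 1 with array weights and 1 with voom. With a library left out, higher calls ran from 0 to 3, lower calls from 0 to 1 and the median log2 fold change from 0.0044 to 0.38. The log2 fold change of Ccl2 ran from -0.48 to 0.78, turning without wild-type replicate 3 and, to -0.018, without knockout replicate 2. Genes whose groups separated upwards were 2 when restricted to those above 1 FPKM and 4 after median-of-ratios scaling. The share of all genes was not computed for either setting, so these counts have no background beside them. With a library left out 5 to 12 members separated upwards (12 without knockout replicate 1) and 1 to 4 downwards. Separation is more common with fewer libraries, and 23.6% to 31.8% of all genes above 0.5 FPKM then separated upwards and 10.1% to 12.5% downwards.

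Over all genes, 564 were higher and 170 lower. Higher calls were 88 with no filter, 990 after rescaling to TPM, 352 with median-of-ratios scaling, 371 with quantile normalization, 280 with the replicate block and 94 to 422 with a library left out (94 without knockout replicate 2, 117 without wild-type replicate 2). Lower calls were 58 with no filter and 54 to 119 with a library left out. The share of calls that were higher was 76.8% as deposited, 60.9% with median-of-ratios scaling, 64.5% with quantile normalization and 85.2% after rescaling to TPM, which moved the median of all genes to 0.13. The causes were not tested. Same-number correlations were 0.170, -0.0625 and 0.0966, which cannot decide whether the numbers pair the libraries. The block rests on numbers alone, and it called no chemokine gene.

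Depth limits the low genes most. Members without 10 reads in at least 3 libraries were not tested by voom.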
